A study of Mus musculus with 30 samples.

Results

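The expression of 9 complement genes was examined in 2 mouse tumour cell lines after treatment with interferons or a STING agonist. The genes were the proteases and components C1ra, C1rb, C1s1, C2, C3, C4b and Cfb, the soluble inhibitor Serping1 and the membrane inhibitor Cd55. They were taken as a named family, and the list was chosen with earlier results of these data known. They were found by symbol in the deposited tables, and make up 9 of the 49315 genes counted and 9 of the 21138 genes tested. All 9 passed the minimum of 10 reads over the 24 libraries.

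B16F10 is a mouse melanoma line. 6694c2 is a pancreatic ductal adenocarcinoma (PDAC) line, which the study's methods trace to female mice with alleles that include p53+/floxed, a Cre-switched YFP reporter (YFP-floxed) and Pdx-cre, which drives recombination in the pancreas. The labels give C57BL/6 as the genotype of both lines. What the vehicle was is not given in the sources used here. Each line was cultured for 24 h with vehicle, IFNγ (100 ng/mL), IFNβ (1000 U/mL) or STING agonist (225 µg/mL), with 3 libraries in each of the 8 groups. The comparisons within a line share their vehicle libraries. IFNγ is the type II interferon, IFNβ is a type I interferon, and a STING agonist activates the sensor STING, which leads many cells to make type I interferon. Nothing in the labels says that the 3 libraries came from separate cultures, so the p-values measure the spread between libraries, which may be technical.

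Between 15543131 and 32266795 reads per library fell on genes. In B16F10 libraries, 7 melanocyte genes summed to between 15980 and 19990 CPM (reads scaled to a common library size), and in 6694c2 libraries 7 ductal epithelial genes summed to between 12020 and 14000 CPM. Libraries of each line also held a low share of transcripts typical of the other line. Whether this share was carried over or expressed at a low level was not tested. Judged by line-specific genes, this share averaged 0.235% to 0.438% of the source line's level in the B16F10 vehicle, IFNγ and IFNβ groups and 1.03% in the B16F10 STING agonist group, and 0.228% to 0.561% in the 6694c2 groups. The 5 hepatocyte genes summed to at most 4.28 CPM in any library, reached in the B16F10 IFNβ group. Alb averaged 1.3 CPM in that group and at most 0.813 CPM in any other group of either line. The 6 macrophage genes summed to between 11.9 and 18.5 CPM in B16F10 libraries, where Cd68 averaged 7.1 to 11.4 CPM and Lyz2 4.11 to 5.85 CPM over the groups. In any group of either line, Ptprc averaged 1.21 to 1.59 CPM, Csf1r at most 0.298 CPM and Adgre1 at most 0.149 CPM. The summed level of the list in 6694c2 cells ranged from 36.9 to 41.3 CPM with vehicle and from 59.2 to 65.6 CPM with IFNγ, and Cd14 made up 36.8 and 58.9 CPM of these on average.

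Complement is a cascade of plasma and tissue proteins that marks targets for uptake or lysis. In the classical pathway, C1q binds a target and the attached proteases C1r and C1s cleave C4 and C2, whose fragments join into an enzyme that cleaves C3. In the alternative pathway, factor B, encoded by Cfb, joins deposited C3 fragments to form the enzyme that cleaves more C3. Serping1 encodes the C1 inhibitor, which blocks C1r and C1s, and Cd55 encodes decay-accelerating factor, which takes the C3-cleaving enzymes apart on the cell's own membrane. Hepatocytes make most plasma complement, and many other cells make components locally, often under the control of interferons and other cytokines.

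The genes lie in a few places on the GRCm38 genome, whose annotation matches the deposited coordinates of all 9. C1ra (ENSMUSG00000055172) is at chr6:124512405-124523443, C1s1 (ENSMUSG00000038521) at chr6:124530345-124542359 on the opposite strand, and C1rb (ENSMUSG00000098470) at chr6:124570294-124581171. C4b (ENSMUSG00000073418) at chr17:34728380-34743882, Cfb (ENSMUSG00000090231) at chr17:34856374-34862518 and C2 (ENSMUSG00000024371) at chr17:34862604-34898265 share the MHC region, and C3 (ENSMUSG00000024164) is at chr17:57203970-57228136. Serping1 (ENSMUSG00000023224) is at chr2:84765387-84775444 and Cd55 (ENSMUSG00000026399) at chr1:130439027-130462744. C1ra and C1rb are near-identical copies, with transcripts 98.15% identical over the aligned bases and 34.5% of the 100-base windows of C1ra found whole in C1rb. For C4b and its copy C4a the identity was 96.2% with 16.5% of windows shared, and for C1s1 and C1s2 it was 96.06% with 7.9% shared. How reads that matched both copies were counted is not given in the sources used here, so the levels of these genes are uncertain to that extent.

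RefSeq start-site windows (250 bases before and 50 after the start, GRCm38.p6) were found for 5 of the 9 genes, namely C1ra, C1rb, C1s1, C3 and Cd55. The windows of C1ra, C1rb and C1s1 are shown because the C1r copies are alike in sequence and far apart in expression, and because the neighbour C1s1 parted from C1ra under IFNβ. They are chr6:124512371-124512670 (plus strand), chr6:124570180-124570479 (plus strand) and chr6:124542310-124542609 (minus strand). Capitals mark a match to TTCNNNGAA, the core of the gamma-activated site.
C1ra: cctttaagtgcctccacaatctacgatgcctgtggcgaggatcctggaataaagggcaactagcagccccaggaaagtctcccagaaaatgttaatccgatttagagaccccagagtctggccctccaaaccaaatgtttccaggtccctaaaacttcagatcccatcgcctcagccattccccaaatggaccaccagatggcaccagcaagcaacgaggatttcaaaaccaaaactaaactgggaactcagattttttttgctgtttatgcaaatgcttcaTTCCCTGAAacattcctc
C1rb: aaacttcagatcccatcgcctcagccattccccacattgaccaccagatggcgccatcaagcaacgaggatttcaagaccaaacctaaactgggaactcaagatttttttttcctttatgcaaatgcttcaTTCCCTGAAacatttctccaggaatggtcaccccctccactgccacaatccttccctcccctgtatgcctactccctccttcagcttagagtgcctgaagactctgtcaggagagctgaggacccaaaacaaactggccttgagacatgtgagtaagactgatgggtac
C1s1: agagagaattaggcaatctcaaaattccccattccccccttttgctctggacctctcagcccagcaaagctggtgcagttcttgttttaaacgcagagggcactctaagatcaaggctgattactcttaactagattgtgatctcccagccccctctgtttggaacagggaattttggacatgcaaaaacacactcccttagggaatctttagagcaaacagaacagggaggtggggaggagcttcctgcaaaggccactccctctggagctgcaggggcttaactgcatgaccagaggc
The C1ra and C1rb windows aligned over 148 bases with 93.9% identity. The same match began at position 33 of C1ra, counting the start base as 1, and 119 bases before the C1rb start. The 6 windows of the 5 genes held no other match. Both RefSeq starts lie downstream of the deposited gene starts given above, so these positions hold for the RefSeq starts only. The search covered 3 motifs on both strands. TTCNNNGAA was found in 8.3% of 32851 mouse start-site windows, GAAANNGAA, which is part of the interferon-stimulated response element, in 8.56%, and GGGANTTTC, a kappa B form, in 1.11%. The matches describe the letters only.

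Members rose with both interferons in both lines, and with the STING agonist in B16F10 cells. In B16F10 cells, IFNγ raised C4b, C1ra, C2, C1s1 and Serping1 (5 of 9), and 12% of all genes tested were higher and 10.8% lower. IFNβ raised C4b, C3, C2, C1ra and C1s1 in that line (5 of 9, against 12.7% of all genes higher and 11.2% lower). In 6694c2 cells, IFNγ raised C4b, C1s1, C1ra, Cfb, C3 and Serping1 (6 of 9, against 7.89% higher and 5.66% lower), and IFNβ raised C4b, Cfb, C1ra and C2 (4 of 9, against 10.4% higher and 7.86% lower). The STING agonist raised C1ra and C2 in B16F10 cells (2 of 9, against 1.93% higher and 1.53% lower). In 6694c2 cells 0 of the 9 were called by edgeR or by DESeq2, 2 were lower before adjustment (C3, unadjusted p = 0.0472, and C4b, unadjusted p = 0.00153, both from edgeR's model) and 0 higher, and 0.203% of all genes were higher and 0.156% lower. Against vehicle, 0 members were called lower in the 6 comparisons by either tool. Before adjustment, Cd55 with IFNγ joined C3 and C4b among those lower, all in 6694c2 cells. The calls of Serping1 in both lines and of C3 in B16F10 cells rested on at most 21 reads in any library. Each of these was lost without some single libraries. As the list was chosen with earlier results known, the shares of all genes stand beside the counts as description only. Called, rose and fell mean an adjusted p-value under 0.05 in the quasi-likelihood F test of edgeR, adjusted over all genes tested by the Benjamini-Hochberg procedure.

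The median log2 fold change of the 9 genes in B16F10 cells was 1.29 with IFNγ, 0.72 with IFNβ and 0.38 with the STING agonist, beside medians over all genes of 0, 0.019 and 0. In 6694c2 cells it was 2.44 with IFNγ, 0.19 with IFNβ and 0 with the STING agonist, beside 0 over all genes in each. The values of 6694c2 cells take Serping1 and C1rb, which had no reads with vehicle, at the log2 fold change over 3 vehicle reads. Where the treated group held no more than 3 reads, 0 was taken. With the fitted values of these 2 genes the medians were 3.65, 0.85 and 0. In bulk RNA, fewer cells that express a gene and less RNA per cell cannot be told apart.

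**Figure D1:**
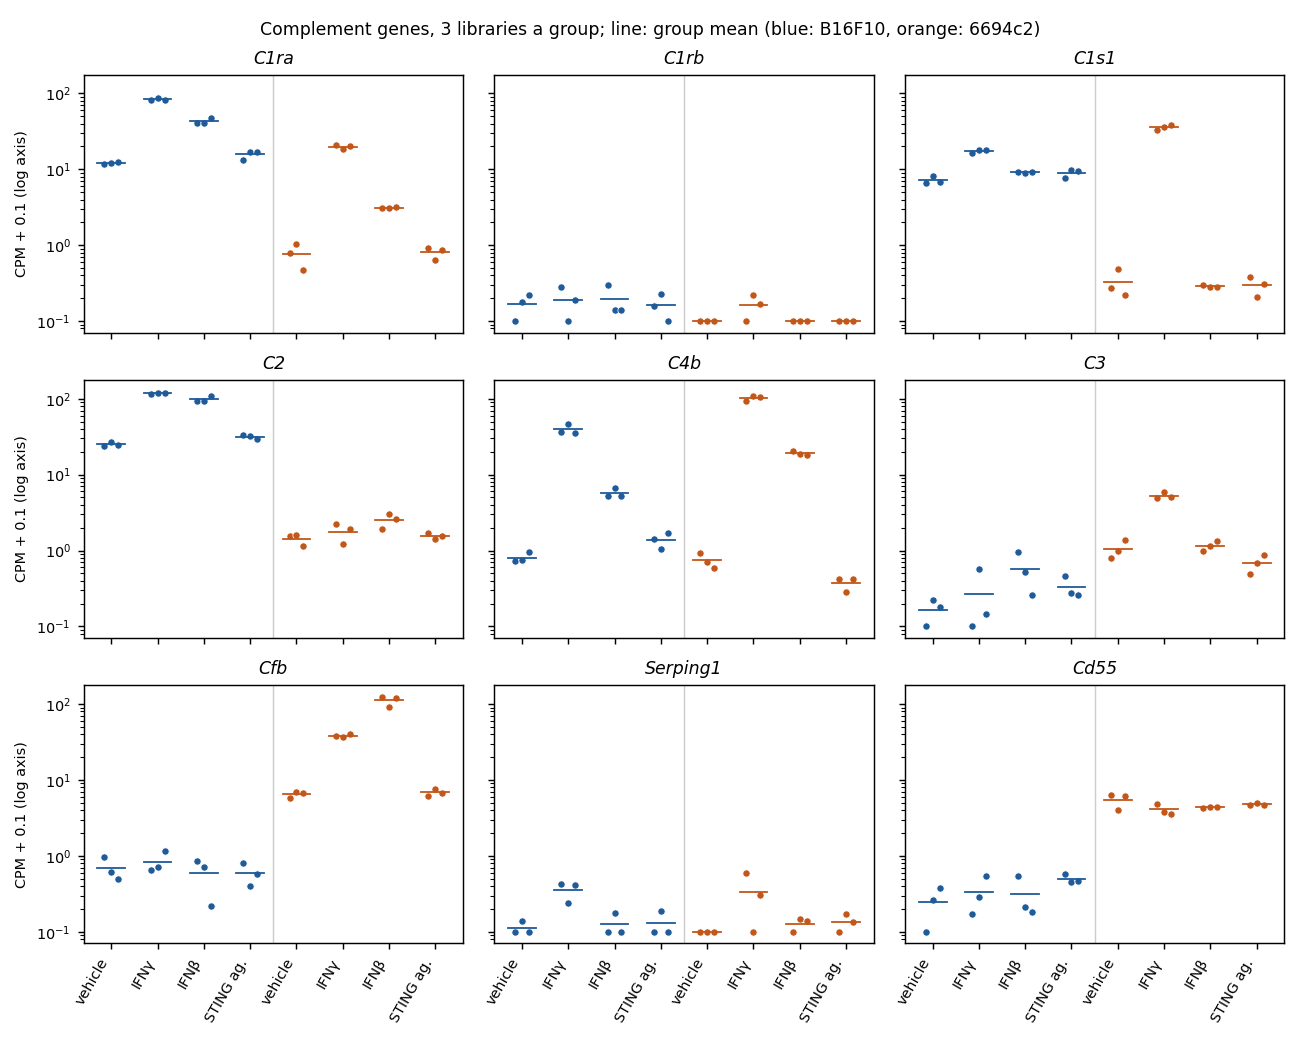
CPM of each of the 9 genes in every library, plotted as CPM + 0.1 on a log axis, with B16F10 groups in blue on the left and 6694c2 groups in orange on the right. Points are libraries and bars are group means (n = 3). C4b rises from below 1 CPM to a mean of 39.4 CPM in B16F10 and 102.5 CPM in 6694c2 cells with IFNγ, and Cfb reaches a mean of 112 CPM in 6694c2 cells with IFNβ while staying near or below 1 CPM in every B16F10 library.

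C1ra encodes C1r, the protease that activates C1s. B16F10 libraries held 11.8, 12.1 and 12.3 CPM with vehicle, 82.3, 86.3 and 80.9 CPM with IFNγ, 40.7, 40.9 and 47.9 CPM with IFNβ, and 13.3, 16.98 and 16.7 CPM with STING agonist. Its levels in 6694c2 cells were 0.700, 0.949 and 0.366 CPM with vehicle, 20.5, 18.3 and 20.2 CPM with IFNγ, 2.96, 3.03 and 3.06 CPM with IFNβ, and 0.827, 0.541 and 0.774 CPM with STING agonist. Each treated group lay wholly above vehicle except the 6694c2 STING agonist group, which overlapped it. In B16F10 cells the log2 fold change was 2.78 (SE 0.0823, adjusted p = 4.78e-118) with IFNγ, 1.85 (SE 0.0837, adjusted p = 2.2e-69) with IFNβ and 0.38 (SE 0.0935, adjusted p = 0.00412) with STING agonist. The last call was lost without STING agonist replicate 2 (0.31, adjusted p = 0.112) or replicate 3 (0.34, adjusted p = 0.0628). In 6694c2 cells it was 4.86 (SE 0.199, adjusted p = 1.35e-23) with IFNγ and 2.18 (SE 0.244, adjusted p = 1.96e-09) with IFNβ.

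The near-copy C1rb had between 0 and 5 reads in any library, at most 0.202 CPM, and no reads in the vehicle, IFNβ and STING agonist libraries of 6694c2 cells. It was called in no comparison, and no fold change is given where both groups were at or under 3 reads or under 1 CPM. A count of 0 over a group allows up to 3 reads. The C1r signal of both lines was therefore counted almost wholly on C1ra, within the limit set by their shared sequence.

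C1s1 encodes C1s, which cleaves C4 and C2. Its levels in B16F10 cells were 6.55, 7.98 and 6.61 CPM with vehicle, 16.1, 18.1 and 17.8 CPM with IFNγ, 9.002, 8.97 and 9.01 CPM with IFNβ, and 7.65, 9.79 and 9.34 CPM with STING agonist. Those in 6694c2 cells were 0.175, 0.391 and 0.122 CPM with vehicle, 32.8, 36.3 and 37.96 CPM with IFNγ, 0.200, 0.181 and 0.184 CPM with IFNβ, and 0.276, 0.108 and 0.211 CPM with STING agonist. In 6694c2 cells the IFNγ libraries thus lay far above all others, and the IFNβ and STING agonist libraries lay within the vehicle range or close below it. IFNγ gave a log2 fold change of 1.29 (SE 0.116, adjusted p = 2.21e-23) in B16F10 and 7.24 (SE 0.214, adjusted p = 6.66e-29) in 6694c2 cells. With IFNβ it was 0.36 (SE 0.123, adjusted p = 0.0194) in B16F10 cells, a call lost without vehicle replicate 1 (0.31, adjusted p = 0.103) or replicate 3 (0.31, adjusted p = 0.105). With STING agonist it was 0.34 in B16F10 cells (SE 0.127, adjusted p = 0.143) and the group overlapped vehicle. In 6694c2 cells, C1s1 held 12 reads over the vehicle group, 15 over the IFNβ group (adjusted p = 0.855) and 16 over the STING agonist group (adjusted p = 0.989). The exons of C1s1 overlap Gm16567 on the opposite strand over 576 of 3129 bases, and Gm16567 had no reads in any group.

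C4b encodes C4, the substrate of C1s and a part of the classical C3-cleaving enzyme. B16F10 libraries held 0.622, 0.642 and 0.860 CPM with vehicle, 36.6, 46.8 and 34.9 CPM with IFNγ, 5.09, 6.63 and 5.17 CPM with IFNβ, and 1.32, 0.953 and 1.59 CPM with STING agonist. 6694c2 libraries held 0.817, 0.614 and 0.488 CPM with vehicle, 93.5, 108 and 106 CPM with IFNγ, 20.2, 18.6 and 17.9 CPM with IFNβ, and 0.315, 0.180 and 0.317 CPM with STING agonist. The vehicle levels of the lines overlapped (log2 difference, 6694c2 against B16F10, -0.15, 95% interval -0.87 to 0.56, adjusted p = 0.743), and each interferon group lay above vehicle without overlap. IFNγ gave a log2 fold change of 5.77 (SE 0.159, adjusted p = 1.78e-127) in B16F10 and 7.32 (SE 0.145, adjusted p = 3.43e-35) in 6694c2 cells, and with IFNβ it was 2.98 (SE 0.197, adjusted p = 3.12e-39) and 4.90 (SE 0.165, adjusted p = 8.14e-27). With STING agonist, the libraries lay above vehicle in B16F10 (log2 0.81, SE 0.277, adjusted p = 0.085) and below it in 6694c2 cells (log2 -1.23, SE 0.362, adjusted p = 0.186), and neither was called. Without STING agonist replicate 2 the B16F10 value was called (1.02, adjusted p = 0.0353). The copy C4a averaged at most 0.254 CPM in any group.

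C2 encodes the protease that joins C4 in that enzyme. Its levels in B16F10 cells were 24.0, 27.03 and 24.8 CPM with vehicle, 117, 118 and 118 CPM with IFNγ, 93.7, 92.0 and 108 CPM with IFNβ, and 32.9, 32.2 and 29.8 CPM with STING agonist. Those in 6694c2 cells ranged from 1.04 to 1.51 CPM with vehicle, 1.10 to 2.11 CPM with IFNγ, 1.80 to 2.90 CPM with IFNβ and 1.33 to 1.62 CPM with STING agonist. All 3 treated groups of B16F10 cells lay above vehicle, and in 6694c2 cells only the IFNβ group did so without overlap. The log2 fold change in B16F10 cells was 2.21 (SE 0.0694, adjusted p = 9.4e-111) with IFNγ, 1.96 (SE 0.0693, adjusted p = 1.37e-95) with IFNβ and 0.31 (SE 0.0745, adjusted p = 0.0023) with STING agonist. In 6694c2 cells it was 0.35 (95% interval -0.24 to 0.95, adjusted p = 0.547) with IFNγ, 0.85 (SE 0.276, adjusted p = 0.0233) with IFNβ and 0.13 (95% interval -0.45 to 0.71, adjusted p = 0.989) with STING agonist. The IFNβ call was lost without vehicle replicate 3 (0.71, adjusted p = 0.125) or IFNβ replicate 2 (0.69, adjusted p = 0.118) or replicate 3 (0.82, adjusted p = 0.0548). At the B16F10 vehicle level, the share of B16F10 transcripts in the 6694c2 libraries would account for 0.0577 to 0.142 CPM of C2.

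C3 encodes the protein on which all pathways converge. In 6694c2 cells it stood at 0.700, 0.893 and 1.28 CPM with vehicle, 4.78, 5.76 and 4.90 CPM with IFNγ, 0.899, 1.04 and 1.25 CPM with IFNβ, and 0.394, 0.577 and 0.774 CPM with STING agonist. In B16F10 cells it held 0, 3 and 2 reads with vehicle, 0, 10 and 1 with IFNγ, 21, 11 and 4 with IFNβ, and 6, 4 and 3 with STING agonist, at most 0.848 CPM in any library. IFNγ libraries of 6694c2 cells lay above all others, and B16F10 libraries with IFNβ and with STING agonist lay above their vehicle libraries at a level of a few reads. The log2 fold change with IFNγ in 6694c2 cells was 2.44 (SE 0.269, adjusted p = 1.34e-09), and with IFNβ it was 0.19 (95% interval -0.44 to 0.82, adjusted p = 0.787). In B16F10 cells IFNβ gave 2.699 (SE 0.825, adjusted p = 0.0069). This call was lost without vehicle replicate 1 (2.21, adjusted p = 0.0548) or IFNβ replicate 1 (2.00, adjusted p = 0.146). The highest sum of hepatocyte genes also lay in the B16F10 IFNβ group, and whether this bears on C3 was not tested.

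Cfb encodes factor B of the alternative pathway. 6694c2 libraries held 5.60, 6.86 and 6.71 CPM with vehicle, 38.4, 36.4 and 39.9 CPM with IFNγ, 124, 91.1 and 121 CPM with IFNβ, and 5.99, 7.604 and 6.72 CPM with STING agonist. B16F10 libraries ranged from 0.391 to 0.861 CPM with vehicle, 0.550 to 1.06 CPM with IFNγ, 0.121 to 0.767 CPM with IFNβ and 0.303 to 0.717 CPM with STING agonist, and all 3 treated groups overlapped vehicle. In 6694c2 cells, vehicle, IFNγ and IFNβ formed 3 steps without overlap. The log2 fold change was 2.60 (SE 0.117, adjusted p = 3.86e-22) with IFNγ and 4.17 (SE 0.114, adjusted p = 2.85e-30) with IFNβ in 6694c2 cells. In B16F10 cells it was 0.33 (95% interval -0.57 to 1.23) with IFNγ and -0.20 (95% interval -1.14 to 0.73) with IFNβ. With STING agonist in 6694c2 cells it was 0.089 (95% interval -0.18 to 0.36, adjusted p = 0.916). Of the 2825 exonic bases of Cfb, 2246 are also exons of Gm20547, a same-strand readthrough gene that also covers 1656 of the 3872 exonic bases of C2. Gm20547 had at most 3 reads over any group, and how reads on shared bases were counted is not given in the sources used here, so reads of Cfb and C2 on those bases may be missing from their counts. Another 161 exonic bases of C2 overlap Zbtb12 on the opposite strand.

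**Figure D2:**
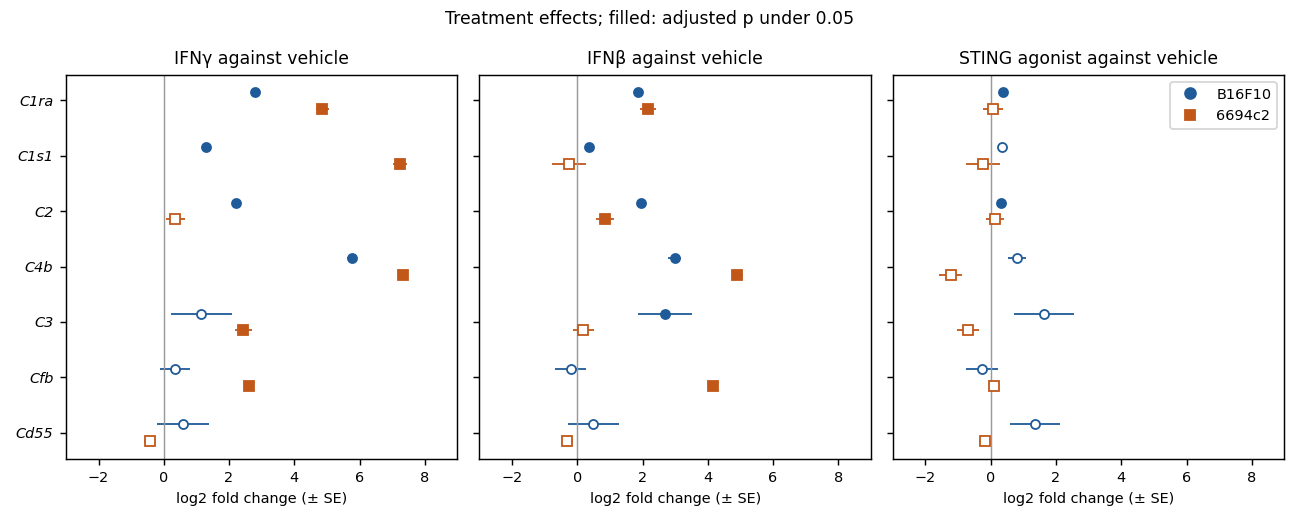
Log2 fold change against vehicle (points) with its standard error (bars) for 7 genes with IFNγ, IFNβ and STING agonist, in B16F10 (blue circles) and 6694c2 cells (orange squares), from 3 libraries a group. Filled symbols have an adjusted p under 0.05. C1rb and Serping1, at a few reads per library, are left out. C1s1 with IFNγ parts the lines most, at 1.29 against 7.24, and Cfb with IFNβ stands at -0.20 against 4.17.

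Serping1 stayed under 1 CPM, and Cd55 was not called against vehicle. Serping1 held 0, 1 and 0 reads with vehicle and 9, 3 and 7 with IFNγ in B16F10 cells, and 0, 0 and 0 with vehicle and 9, 0 and 6 with IFNγ in 6694c2 cells. All groups given IFNβ or STING agonist held 2 or 3 reads over their 3 libraries. The B16F10 IFNγ libraries lay above vehicle, with a ratio of pooled reads of 19.0 (exact 95% interval 3.02 to 790 for counting error only). Apart from this ratio, edgeR called the difference in its own model (adjusted p = 0.0275). This call was lost without vehicle replicate 1 (adjusted p = 0.1), vehicle replicate 3 (0.116), IFNγ replicate 1 (0.104) or IFNγ replicate 3 (0.0809). In 6694c2 cells, Serping1 was 4.04-fold higher with IFNγ when the vehicle group was set at its limit of 3 reads. This value takes the IFNγ reads as counted, without their error. edgeR called the difference in its own model (adjusted p = 0.0436), but 1 of the 3 IFNγ libraries had no read. That call was lost without any 1 of the 3 vehicle libraries (adjusted p = 0.0873, 0.122 and 0.118) and without IFNγ replicate 1 (0.205) or replicate 3 (0.0777). At its highest, 0.500 CPM, Serping1 was well below C1ra and C1s1 in the same library.

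Cd55 stood at 6.24, 3.91 and 6.10 CPM with vehicle, 4.78, 3.68 and 3.503 CPM with IFNγ, 4.23, 4.30 and 4.28 CPM with IFNβ, and 4.61, 4.94 and 4.61 CPM with STING agonist in 6694c2 cells. Every treated group overlapped vehicle, whose second library was the lowest of its group. The log2 fold change with IFNγ was -0.43 (SE 0.177, adjusted p = 0.109), with IFNβ -0.31 (SE 0.170, adjusted p = 0.253) and with STING agonist -0.19 (95% interval -0.53 to 0.15, adjusted p = 0.809). Without vehicle replicate 2, Cd55 was called lower with IFNγ (-0.62, adjusted p = 0.0164) and with IFNβ (-0.50, adjusted p = 0.0478), and without IFNγ replicate 1 it was called lower with IFNγ (-0.57, adjusted p = 0.0423). In B16F10 cells it was at most 0.478 CPM in any library.

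IFNβ and IFNγ were then compared directly within each line. IFNγ gave the higher level of C1ra, C1s1 and C4b in both lines, and IFNβ the higher level of Cfb in 6694c2 cells. In B16F10 cells, C4b (log2 IFNβ against IFNγ -2.79, SE 0.113, adjusted p = 4.73e-80), C1ra (-0.94, SE 0.0720, adjusted p = 1.75e-30), C1s1 (-0.93, SE 0.112, adjusted p = 8.29e-14) and C2 (-0.26, SE 0.0626, adjusted p = 0.000626) were lower with IFNβ. These are 4 of 9 lower and 0 higher, also by DESeq2, against 7.85% of all genes lower and 6.65% higher. C3 was the 1 gene higher before adjustment in this line (unadjusted p = 0.0355, adjusted p = 0.167 in edgeR's model). In 6694c2 cells, C1s1 (-7.50, SE 0.202, adjusted p = 4.61e-30), C1ra (-2.69, SE 0.146, adjusted p = 4.17e-19), C4b (-2.42, SE 0.0866, adjusted p = 1.69e-25) and C3 (-2.25, SE 0.247, adjusted p = 1.28e-09) were lower with IFNβ, and Cfb was higher (1.57, SE 0.0915, adjusted p = 5.32e-18). These are 4 of 9 lower and 1 higher, against 6.57% of all genes lower and 7.3% higher. C2 (0.50, 95% interval -0.02 to 1.02, adjusted p = 0.239) and Cd55 (0.13, 95% interval -0.22 to 0.48, adjusted p = 0.743) were not called in that line. The doses were fixed by mass for one interferon and by activity for the other, so the comparison holds for these doses.

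**Figure D3:**
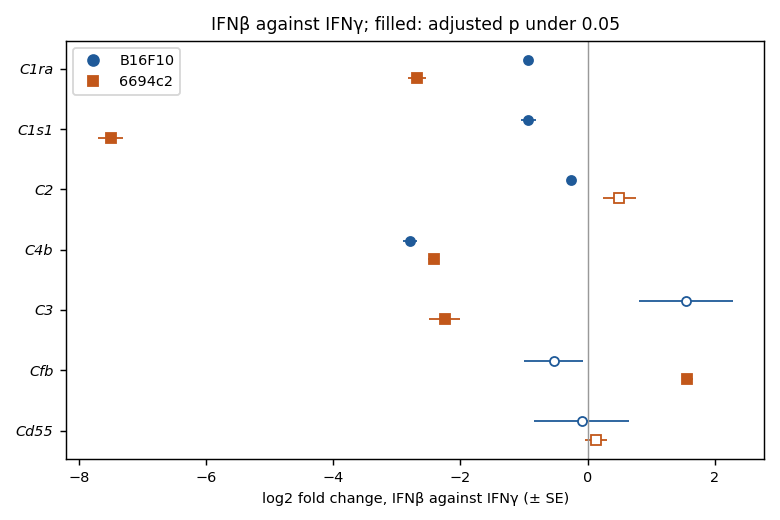
Log2 fold change of IFNβ against IFNγ (points) with its standard error (bars) for 7 genes in B16F10 (blue circles) and 6694c2 cells (orange squares), from 3 libraries a group. Filled symbols have an adjusted p under 0.05. C1ra, C1s1 and C4b lie left of 0 in both lines, C1s1 in 6694c2 cells at -7.50, and Cfb in 6694c2 cells lies to the right at 1.57.

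Whether the lines differed in response was tested by an interaction term in a fit of all 24 libraries. Response here means the log2 ratio to vehicle, and vehicle levels of several members differed between the lines. C1ra averaged 12.04 CPM with vehicle in B16F10 and 0.67 CPM in 6694c2 cells, and 83.2 against 19.67 CPM with IFNγ. Its smaller log2 response in B16F10 cells thus went with a higher level there. C1s1, C4b and Cfb with IFNγ were higher in 6694c2 cells, where C1s1 held 12 reads over the vehicle group. With IFNγ, the response was smaller in B16F10 than in 6694c2 cells for C1s1 (log2 difference -5.94, SE 0.272, adjusted p = 7.13e-20), Cfb (-2.24, SE 0.448, adjusted p = 0.000448), C1ra (-2.06, SE 0.236, adjusted p = 1.95e-08) and C4b (-1.53, SE 0.366, adjusted p = 0.00356), and larger for C2 (1.87, SE 0.265, adjusted p = 1.62e-06). That is 4 of 9 lower and 1 higher, against 4.52% of all genes lower and 4.95% higher. With IFNβ it was smaller in B16F10 cells for Cfb (-4.32, SE 0.494, adjusted p = 1.89e-08) and C4b (-1.90, SE 0.374, adjusted p = 0.000333) and larger for C2 (1.15, SE 0.246, adjusted p = 0.000953), or 2 lower and 1 higher against 6.16% and 5.9% of all genes. C1ra did not pass for IFNβ (-0.30, 95% interval -0.85 to 0.25, adjusted p = 0.578). C3 was at 2.53 (adjusted p = 0.0573) and passed without B16F10 IFNβ replicate 3 (2.88, adjusted p = 0.0186) or 6694c2 vehicle replicate 1 (2.71, adjusted p = 0.0461). With STING agonist, C4b alone passed, as the 1 of 9 higher in B16F10 cells with 0 lower, against 1.56% of all genes higher and 0.568% lower. Its log2 difference was 2.05 (SE 0.518, adjusted p = 0.0197) at levels of 0.180 to 1.59 CPM. This call was lost without any 1 of 5 libraries, which were B16F10 vehicle replicates 1 (adjusted p = 0.0512) and 2 (0.0537), B16F10 STING agonist replicate 3 (0.0804), 6694c2 vehicle replicate 1 (0.0977) and 6694c2 STING agonist replicate 2 (0.0705).

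With vehicle, 6 of the 9 genes differed between the lines. C2, C1ra and C1s1 were lower in 6694c2 than in B16F10 cells, by log2 changes of -4.23 (SE 0.148, adjusted p = 2.78e-26), -4.14 (SE 0.184, adjusted p = 1.18e-22) and -4.89 (SE 0.254, adjusted p = 2.14e-20). Cd55 (5.09, SE 0.386, adjusted p = 4.2e-15), Cfb (3.46, SE 0.263, adjusted p = 4.35e-15) and C3 (3.67, SE 0.701, adjusted p = 1.56e-05) were higher in 6694c2 cells. These are 3 of 9 in each direction, against 28.7% of all genes higher and 29.3% lower, so the share of members that differed was near the share of all genes. The 9 genes summed to 46.0 ± 2.46 CPM (SD, n = 3) in B16F10 and 15.6 ± 0.488 CPM in 6694c2 cells with vehicle. The sums were 259 ± 10.2 and 207 ± 8.80 CPM with IFNγ, 157 ± 11.5 and 142 ± 18.1 CPM with IFNβ, and 58.7 ± 2.08 and 14.8 ± 0.675 CPM with STING agonist, in the same order.

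Levels of different genes were compared as CPM per kb of exonic length. With vehicle the order in B16F10 cells was C2 (6.53 CPM per kb), C1ra (4.04) and C1s1 (2.25), with every other member at 0.209 or less. In 6694c2 cells it was Cfb (2.26) and Cd55 (1.12), with the others at 0.344 or less. With IFNγ, C2 (30.4) and C1ra (27.9) stayed ahead of C4b (6.93) and C1s1 (5.53) in B16F10 cells, whereas C4b (18.01), Cfb (13.5), C1s1 (11.4) and C1ra (6.60) led in 6694c2 cells. With IFNβ, Cfb stood at 39.6 CPM per kb in 6694c2 cells and the next gene, C4b, at 3.32. These values change if every counted read fell on exonic bases that no other gene shares, which is not known. Cfb would in that case stand at 193 CPM per kb in 6694c2 cells with IFNβ, and C2 in B16F10 cells with IFNγ at 57.3. Cfb would then lead C4b in 6694c2 cells with IFNγ (66.0 against 18.01).

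**Figure D4:**
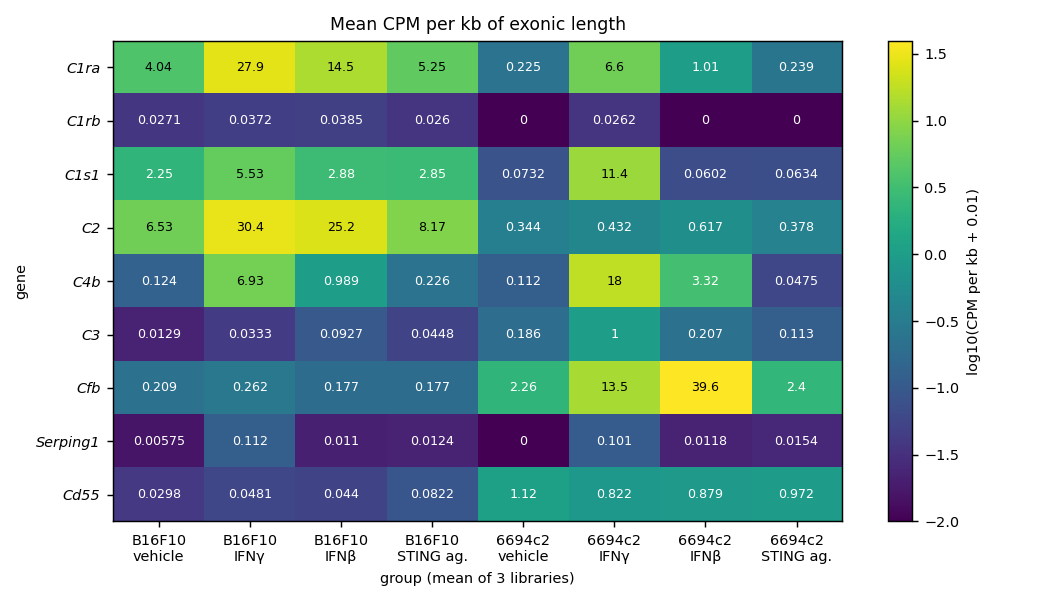
Mean CPM per kb of exonic length (n = 3 libraries) for each gene (rows) in each group (columns), printed in the cells and coloured by log10(CPM per kb + 0.01). C2 and C1ra lead in every B16F10 group, and Cfb leads in every 6694c2 group except IFNγ, where C4b stands at 18.01 and Cfb at 13.5.

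Other genes of the system were read from a list of 41, ordered by role. Of these, 25 had enough reads to be tested, 12 reached a mean of 1 CPM in some group, and 7 were called in at least 1 comparison against vehicle. The recognition genes of the classical pathway C1qa, C1qb and C1qc had 9, 6 and 8 reads over all 24 libraries and were not tested. With IFNγ, 2 of the 25 were higher and 2 lower in B16F10 cells (12% and 10.8% of all genes), and 2 were higher and 1 lower in 6694c2 cells (7.89% and 5.66% of all genes). With IFNβ the counts were 4 higher and 1 lower in B16F10 (12.7% and 11.2% of all genes) and 1 higher and 0 lower in 6694c2 cells (10.4% and 7.86%). With STING agonist they were 1 higher and 0 lower in B16F10 cells (1.93% and 1.53% of all genes). They were 0 in either direction in 6694c2 cells, where 0 of the 25 also had an unadjusted p under 0.05. Clu was the 1 gene higher with STING agonist, and was among those higher with IFNγ and with IFNβ in B16F10 cells. Its B16F10 counts less the share of 6694c2 transcripts leave nothing to compare, as given below. The median log2 fold change of the 25 against vehicle was 0.055, 0.41 and 0.13 in B16F10 cells and 0.033, -0.11 and -0.031 in 6694c2 cells with IFNγ, IFNβ and STING agonist. Cd46, the 1 gene called that stayed under 1 CPM, averaged 0.687 CPM at most.

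C1rl, a protease related to C1r, rose with IFNγ in both lines (log2 0.73, SE 0.0824, adjusted p = 9.92e-16 in B16F10 and 3.17, SE 0.450, adjusted p = 5.09e-07 in 6694c2 cells) and with IFNβ in B16F10 cells (0.50, SE 0.0829, adjusted p = 8.53e-08). Its mean was 22.1 CPM with vehicle and 36.8 CPM with IFNγ in B16F10 cells, and 0.256 and 2.32 CPM in 6694c2 cells. At the B16F10 vehicle level, the share of B16F10 transcripts would account for 0.119 CPM of the vehicle value in 6694c2 cells, and with counts less the share at the vehicle or the mean level the log2 fold change there was 3.94 or 4.69. Without 6694c2 vehicle replicate 3 it was 3.73. Masp1, which encodes a protease of the lectin pathway, fell with IFNγ and rose with IFNβ. In B16F10 cells it went from 75.1 ± 6.29 CPM (SD, n = 3) with vehicle to 57.2 ± 6.69 with IFNγ (log2 -0.39, SE 0.0641, adjusted p = 4.32e-08) and 137 ± 8.10 with IFNβ (0.87, SE 0.0621, adjusted p = 5.52e-35), while 6694c2 groups averaged at most 1.25 CPM. Cd59a, which encodes a membrane inhibitor of the terminal complex, fell in B16F10 cells from 23.1 ± 0.998 CPM to 16.97 ± 1.37 with IFNγ (-0.45, SE 0.0912, adjusted p = 1.56e-05) and to 18.9 ± 1.51 with IFNβ (-0.28, SE 0.0898, adjusted p = 0.00923). The IFNβ call was lost without vehicle replicate 3 (adjusted p = 0.0629) or IFNβ replicate 2 (0.0829). The receptor gene C3ar1 rose with IFNβ in 6694c2 cells from 5.71 ± 1.10 to 11.3 ± 0.371 CPM (1.03, SE 0.140, adjusted p = 1.96e-07).

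Clu encodes clusterin, a secreted chaperone that also binds terminal complement. It averaged 4896 CPM with vehicle in 6694c2 cells and fell to 3400 CPM with IFNγ (log2 -0.51, SE 0.0631, adjusted p = 2.35e-08). In B16F10 cells it averaged 7.47 CPM with vehicle, 12.6 with IFNγ, 13.3 with IFNβ and 33.8 with STING agonist, and each difference from vehicle was called (log2 0.72, 0.83 and 2.15, adjusted p = 2.82e-07, 1.28e-09 and 1.15e-52). The IFNγ libraries overlapped vehicle, and the IFNγ and IFNβ calls were lost with DESeq2 (adjusted p = 0.132 and 0.0849) and with the robust fit of edgeR (adjusted p = 0.289 and 0.199). With single libraries left out the log2 value ran from 0.45 to 1.06 with IFNγ and from 0.49 to 1.05 with IFNβ. These levels moved with the share of 6694c2 transcripts in the B16F10 groups, which at the 6694c2 vehicle level would give 11.5, 16.8, 21.5 and 50.5 CPM of Clu in that order. These amounts are above the measured mean in each group, so counts less that share leave no Clu to compare in B16F10 cells. The STING agonist call held in 15 of 17 alternative fits, and was lost in the 2 that took that share away. Whether Clu in B16F10 cells was expressed there or carried over was not tested.

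**Figure D5:**
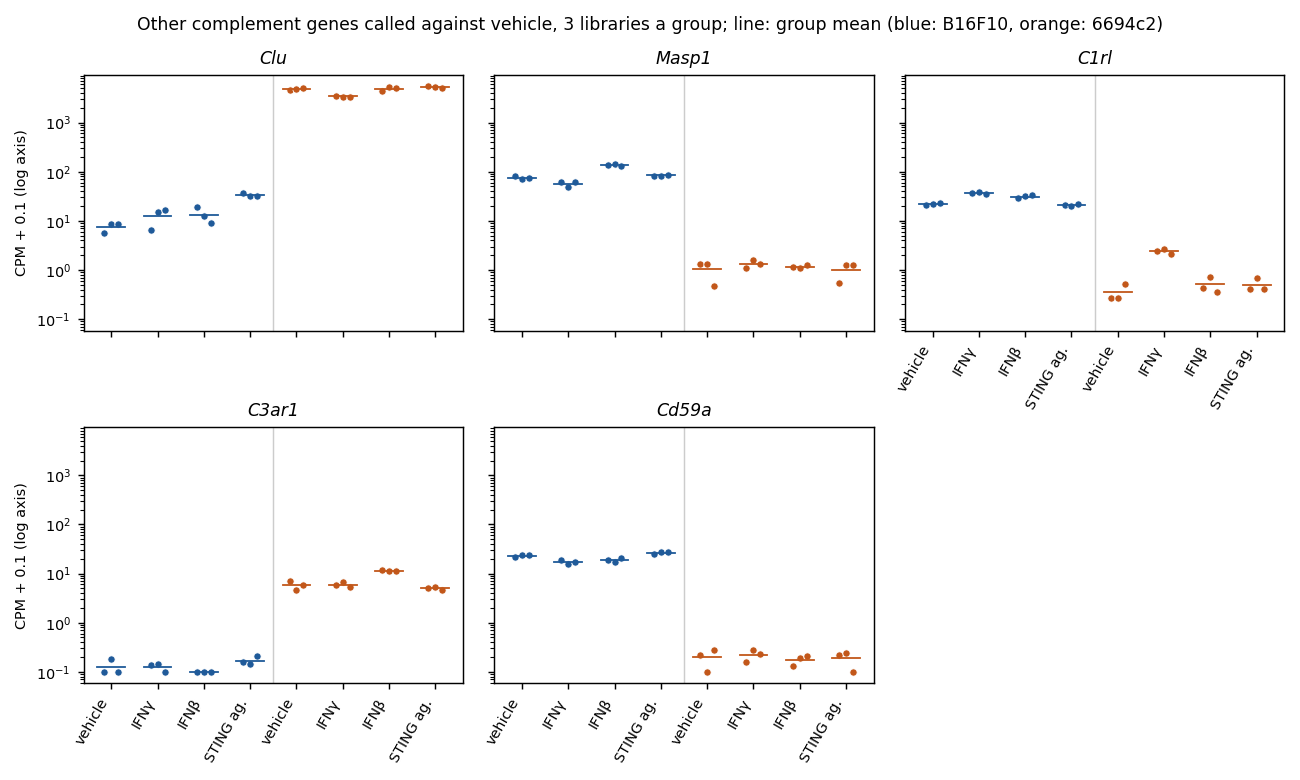
CPM + 0.1 (log axis) in every library for 5 other complement genes that were called against vehicle and reached 1 CPM, with B16F10 groups in blue on the left and 6694c2 groups in orange on the right. Points are libraries and bars are group means (n = 3). Masp1 in B16F10 cells is lower with IFNγ and higher with IFNβ, and Clu in B16F10 libraries stays below 37 CPM, against 3296 CPM or more in 6694c2 libraries.

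The members were alike in pattern in part. With each line centred on its own mean of log2 CPM, the Pearson correlation over the 24 libraries was 0.96 between C4b and C1ra, 0.84 between C1s1 and C1ra and 0.71 between C4b and C1s1. It was 0.10 between C2 and C1s1 and 0.27 between Cfb and C1s1. Cd55 ranged from -0.18 to 0.21 with the others. The points share 8 treatment groups and their library depths, so these values describe likeness only. Among 10773 genes at 1 CPM or more in 3 libraries of each line, those most like C4b were Tmem229b (r = 0.99), Gbp7 (0.99) and Samhd1 (0.99), and those most like C1ra included Tmem229b (0.97) and Socs1 (0.96). For C1s1 they were Tubb3 (0.98), Ecscr (0.96) and Rock1 (0.96), for C2 Ccdc25 (0.95), Rab29 (0.93) and Klf6 (0.93), and for Cfb Mafk (0.93), Ly6e (0.91) and Capza2 (0.90). For C3 they were Ripor2 (0.83), Ablim1 (0.79) and Gpc6 (0.77), and for Cd55 Ralgps2 (0.88), Cav1 (0.83) and Lgals2 (0.83). For the sparse Serping1 (Mgst1, Noc4l and Aifm2, 0.78 to 0.79) and C1rb (Fscn1, Ticrr and Arsk, 0.63 to 0.74) the values rest on a few reads per library.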

How the data were processed

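Bulk poly-A RNA was measured in 24 libraries, 12 per line. Per the study's methods, the authors trimmed adaptors with cutadapt, aligned paired reads with STAR and counted them per gene with Rsubread, and they deposited raw counts without normalization. The submitters' processing notes name mm10, without saying for which files. The annotation, strand setting and handling of multi-mapping or overlapping reads for these counts are not given in the sources used here. Of 49315 genes, 49056 are in GENCODE M21 (GRCm38), 91.4% with the same coordinates. Symbols were found for 48970.

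Counts were analysed with edgeR 4.0.16 in R 4.3.3. Genes with 10 or more reads over the 24 libraries (21138) were fitted per line after TMM normalization, or over both lines for the interactions and the vehicle comparison, by quasi-likelihood F tests with Benjamini-Hochberg adjustment (threshold 0.05). Standard errors came from the fold change and F. CPM use TMM library sizes over all 24 libraries. Marker sums and the other line's share use total reads. That share is the median, over genes at 50 CPM or more in one line's vehicle group and under 2% of that level in the other's, of the level relative to the source line. Fits were tested on simulated counts. Alternatives were DESeq2 1.42.0, other scalings and filters, a robust fit, a replicate block, other sets of libraries, counts less the other line's share, and each library left out. Replicates of a group differed beyond sampling noise in every pair.

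Named were all 9 members, the other complement genes called against vehicle with a group mean of 1 CPM or more, and the 3 genes most like each member by correlation. C4a, C1q genes, Cd46 and overlapping genes fall outside this rule. Fold changes of uncalled genes are given only where a group reached 1 CPM or the difference between lines was called. The members and lists were chosen with earlier results of these data known. Sequences are from RefSeq (GRCm38.p6), and identities were computed with Biopython 1.88. Some items, among them 2 genes that the naming rule picks, are not reported here. The single-cell samples were not analysed here.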

Additional observations from a re-analysis of the deposited data

Results flagged for a closer look

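The effect of a treatment differed between the lines, by a test of the difference itself, for 5 of the 9 genes and for 2 of the other genes. Differences are log2, B16F10 minus 6694c2. With IFNγ they were -2.06 for C1ra, -5.94 for C1s1, 1.87 for C2, -1.53 for C4b and -2.24 for Cfb. With IFNβ they were 1.15 for C2, -1.90 for C4b and -4.32 for Cfb, and with STING agonist 2.05 for C4b. Beside these, C1rl with IFNγ differed by -2.41, where its vehicle mean was 22.1 CPM in B16F10 and 0.256 CPM in 6694c2 cells, of which the B16F10 share would account for 0.119 CPM. Clu differed by 1.24 with IFNγ, 0.82 with IFNβ and 2.05 with STING agonist. The Clu level in B16F10 cells moved with the 6694c2 share of those libraries, which averaged 0.235% with vehicle and 1.03% with STING agonist. The groups of 3 were too small to look for single libraries that stand apart.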

How the results depend on the processing

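Of 46 called results of the 9 genes over 12 comparisons, 38 kept their call and direction under each of 11 alternatives that gave a value and with each of the 24 libraries left out, and 0 of the 46 changed direction. For the other genes that the naming rule picks, only comparisons against vehicle were followed. Of their 13 called results, 9 kept their call and direction. For Clu in B16F10 cells the counts less the other line's share hold nothing to test. DESeq2 called 4 members in B16F10 cells with IFNγ, 4 with IFNβ and 5 in 6694c2 cells with IFNγ, and in these gave no adjusted p for the remaining gene that edgeR called (Serping1, C3 and Serping1). It called 2 members as responding more to IFNβ in B16F10 than in 6694c2 cells, as did the fit with no filter (2) and the replicate block (2), against 1 as reported, with C3 the gene added. Counts less the other line's share at its mean level left 0 there (C2 at 0.77, adjusted p = 0.119) and 0 for the STING agonist (C4b at 1.93, adjusted p = 0.11). The same counts turned the direction of C1ra (-0.059) and C2 (-0.11), neither called, between lines with the STING agonist.

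Leaving out single libraries gave 3 to 5 members higher in B16F10 cells with IFNβ, 3 without vehicle replicate 1. It gave 1 to 2 with the STING agonist, 0 to 1 higher with IFNβ than with IFNγ in that line, 0 to 1 lower with IFNγ and 0 to 1 lower with IFNβ in 6694c2 cells, and 1 to 2 (IFNβ) and 0 to 1 (STING agonist) with the larger response in B16F10 cells. Values of uncalled genes changed sign. Cfb in B16F10 cells ranged from -0.016 to 0.68 with IFNγ and from -0.64 to 0.25 with IFNβ. With the STING agonist in 6694c2 cells C2 ranged from -0.014 to 0.23 and Cfb from -0.0015 to 0.17. Between lines, Cd55 ranged from -0.33 to 1.52 with IFNβ, and with the STING agonist C1ra from -0.019 to 0.60 and C1s1 from -0.038 to 0.87.

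Libraries that share a replicate number did not deviate together: the correlation of their deviations was over 0.1 in 3 of 36 pairs and ranged from -0.149 to 0.127. With the replicate block, C4b with IFNγ was at 5.77 in B16F10 and 7.32 in 6694c2 cells, 5 members instead of 6 were called with IFNγ in 6694c2 cells (Serping1 at an adjusted p of 0.0833), and the count between lines with IFNβ was the 2 given above. Depth limits Serping1, C1rb, C3 in B16F10 and C1s1 in 6694c2 cells without IFNγ, all at a few reads per library.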
